A study of Mus musculus with 2 samples.

Results

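The loci of 5 lineage regulators, Pax6, Gata6, T (Brachyury), Nkx2-5 and Olig2, were examined for binding of the H3K36 demethylase KDM2A in mouse embryonic stem cells (ESCs). The members were chosen as named genes, each with a fixed window in mm9 coordinates, and not by a ranking of KDM2A level. Earlier results of these data were known when they were chosen. The windows were chr2:105495001-105525000 for Pax6, chr18:11045001-11062000 for Gata6, chr17:8620001-8637000 for T, chr17:26970001-26985000 for Nkx2-5 and chr16:91217001-91235000 for Olig2. Together the 5 windows span 97 kb and 388 of the 10130200 bins of 250 bp into which the genome was divided, and the 50 kb on either side of each window served as its background. The data are 1 library of DNA precipitated with a KDM2A-specific antibody and 1 library of input DNA, both from V6.5 ESCs, a line from a cross of C57BL/6 and 129/sv that the sample records give as strain C57BL/6. The cells were grown on inactivated mouse embryonic fibroblasts and passaged without feeders on gelatin before use, and the sample records name no treatment or engineered allele. For the KDM2A ChIP, cells were fixed in EGS, which joins proteins to one another, and then in formaldehyde. No expression was measured in these libraries, so the cell type was not checked against its markers and the transcription of the 5 genes is not known here. With 1 library of each kind there are no replicates, and every comparison below is between these 2 libraries and covers counting error only.

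KDM2A carries a zinc finger CxxC domain that binds CpG dinucleotides when they are not methylated, and a Jumonji domain that removes methyl groups from lysine 36 of histone H3. Most nonmethylated CpG in the mouse genome lies in CpG islands, many of which cover the promoters of developmental genes. The 5 members encode transcription factors of different lineages. Pax6 and Olig2 act in the nervous system, Pax6 in the eye, forebrain and spinal cord and Olig2 in motor neuron and oligodendrocyte precursors. T is required for mesoderm and notochord, Gata6 for primitive and definitive endoderm and Nkx2-5 for the heart. Genes of this kind are in general little transcribed in undifferentiated ESCs, where their promoters are known as targets of Polycomb complexes.

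Promoter sequence upstream of the annotated start was at hand for 4 of the 5 members, with 2 starts for Pax6, from the RefSeq promoters of GRCm38.p6. These positions belong to another build than the tags and were not joined to them. In the 250 bases before the start, read 5′ to 3′ on the strand of the gene, the motif CG occurred 22 times at Olig2, 15 times at each start of Pax6, 14 times at T and 8 times at Nkx2-5. The median of the 32851 promoters in the table was 6, and 14.8% of them held at least as many CG as Olig2, 27.3% as many as Pax6, 29.4% as many as T and 43.0% as many as Nkx2-5. The ratio of observed to expected CG was 0.821 at Olig2, 0.652 and 1.06 at the starts of Pax6, 0.594 at T and 0.535 at Nkx2-5, against a median of 0.374. CG reads the same on both strands, so that each pair was counted once. 3 of these sequences are shown, those of Olig2 and Nkx2-5 because they hold the most and the fewest CG of the 5 sequences, which do not include Gata6, and that of the second Pax6 start because its ratio of observed to expected CG was the highest. Capitals mark each CG, the dinucleotide that the CxxC domain can bind. They lie at chr16:91225300-91225549 on the plus strand for Olig2, chr17:26841566-26841815 on the minus strand for Nkx2-5 and chr2:105682213-105682462 on the plus strand for Pax6, all in GRCm38.p6.
Olig2: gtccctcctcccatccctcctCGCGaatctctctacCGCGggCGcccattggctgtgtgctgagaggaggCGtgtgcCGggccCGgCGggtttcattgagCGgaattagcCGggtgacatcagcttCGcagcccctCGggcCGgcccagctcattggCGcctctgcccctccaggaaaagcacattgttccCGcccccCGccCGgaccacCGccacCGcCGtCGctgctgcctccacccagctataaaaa
Nkx2-5: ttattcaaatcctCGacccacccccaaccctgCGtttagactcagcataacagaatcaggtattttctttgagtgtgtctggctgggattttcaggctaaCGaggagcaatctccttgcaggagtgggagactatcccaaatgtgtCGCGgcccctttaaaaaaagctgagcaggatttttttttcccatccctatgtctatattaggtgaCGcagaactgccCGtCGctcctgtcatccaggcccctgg
Pax6, second start: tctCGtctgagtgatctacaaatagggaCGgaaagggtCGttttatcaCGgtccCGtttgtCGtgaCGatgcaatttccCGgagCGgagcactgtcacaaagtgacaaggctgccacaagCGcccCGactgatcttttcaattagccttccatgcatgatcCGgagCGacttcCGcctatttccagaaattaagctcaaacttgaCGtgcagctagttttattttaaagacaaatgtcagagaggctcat
How far CG-rich sequence extends beyond them was not analysed here.

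The KDM2A ChIP library held 10042076 tags and the input library 9760426, both aligned to mm9 by the submitters. Tags beyond the first at a position and strand were 4.75% of the ChIP and 20.4% of the input library. Input was multiplied by 1.03, the ratio of the totals, where ChIP is given relative to scaled input. The mean of the ChIP library was 0.991 tags per bin.

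KDM2A was enriched at each of the 5 loci. To call a bin, its ChIP tags were set against an expected level, either the genome mean or the scaled input of the 5 kb around it, whichever was greater, in an exact Poisson test (one-sided, adjusted p limit of 0.01, Benjamini-Hochberg over all bins of the genome). In the 5 windows, 57 of 388 bins were called, or 14.7%, compared with 1.05% of all bins of the genome. In the flanks, 32 of 2000 bins were called, or 1.60%. Called bins within 500 bp of each other were joined into 18 clusters, and each window held between 2 and 6. Testing input against ChIP in the same way called 0 bins in the windows, against 0.144% of all bins. At an unadjusted p below 0.05, that exchanged Poisson test passed 3 bins of the windows, or 0.773%, against 4.48% of all bins. Its expected level was the greater of the input mean and the scaled ChIP of the surrounding 5 kb. High ChIP in the windows raises that level, so their low share is not an independent measure of noise. With the genome mean alone, the exchanged test called 0.25 kb of the windows.

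**Figure D1:**
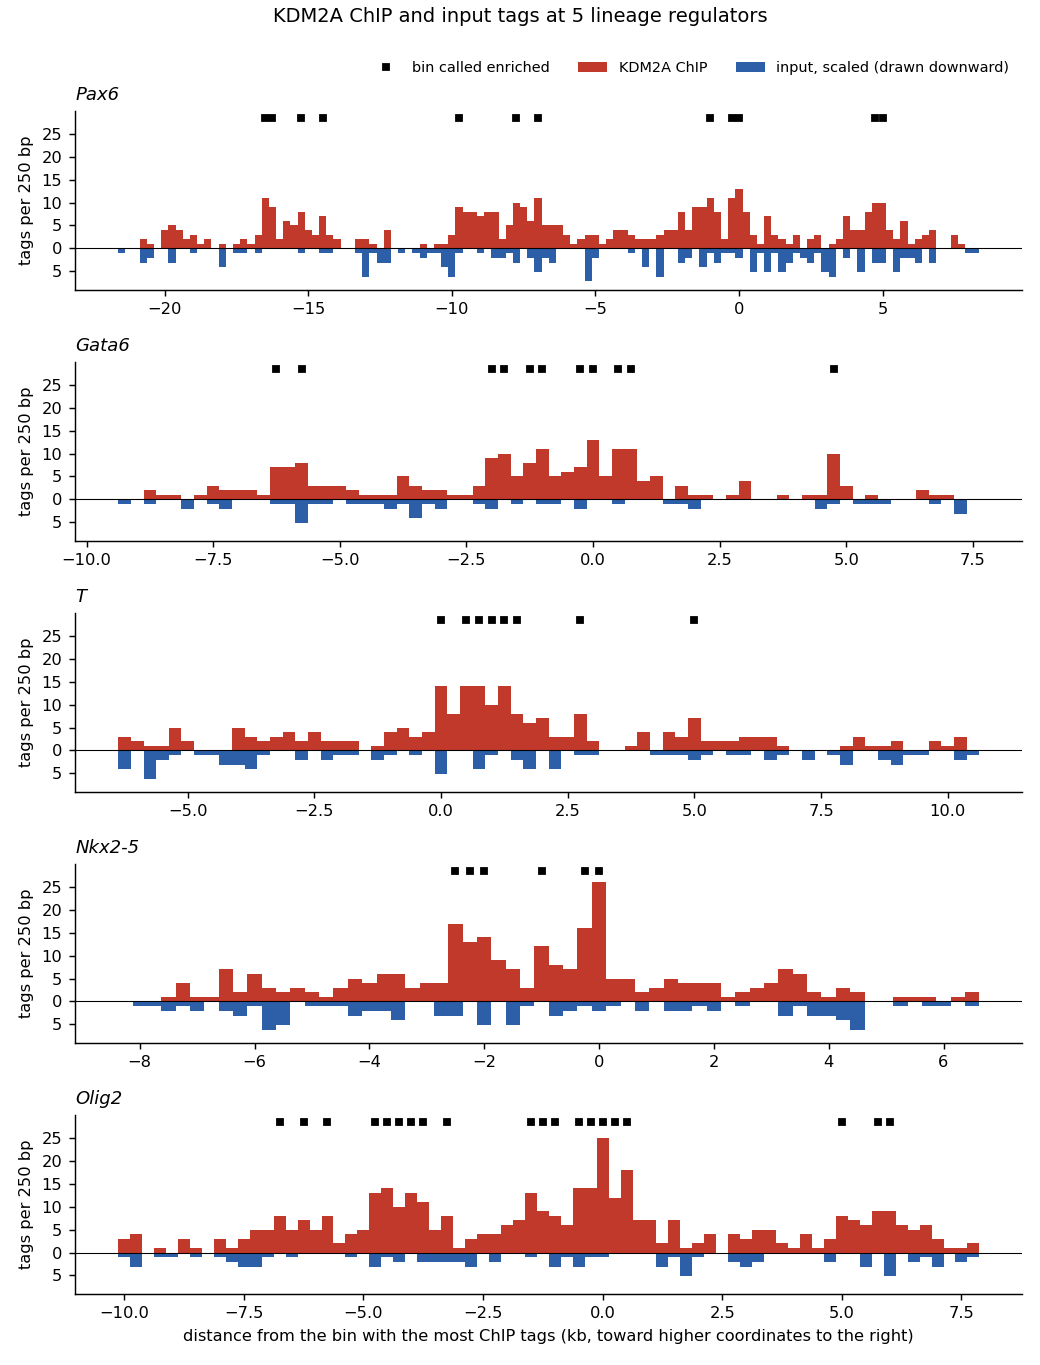
KDM2A ChIP tags (red, upward) and scaled input tags (blue, downward) per 250 bp bin in the 5 windows, plotted by distance in kb from the bin with the most ChIP tags, the first of them at T where several tie. Black squares mark the 57 called bins. Pax6 shows several low mounds of up to 13 tags spread over the window, Gata6 and T each show a broad mound of up to 13 and 14 tags, and Nkx2-5 and Olig2 reach 26 and 25 tags.

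At Olig2, a basic helix-loop-helix factor, 20 of 72 bins were called in 4 clusters, or 27.8%, the highest share of the 5 windows. The called length was 5.0 kb, compared with 3.0 kb at Pax6, but with the genome mean alone as the expected level it was 6.25 kb, compared with 6.5 kb at Pax6. The window held 412 ChIP tags and 84 input tags. The tallest cluster, chr16:91225501-91227750, was 2250 bp wide and contained 119 tags of ChIP and 10 of input, with 25 ChIP tags in its highest bin (exact Poisson, adjusted p = 2.07e-22). The cluster before it, chr16:91222251-91224000, held 74 ChIP tags against 12 input tags, and peaked at 14 tags in a bin (exact Poisson, adjusted p = 3.81e-09). The outer 2 clusters were low. The one at chr16:91220251-91221500 had 33 ChIP tags, 1 input tag and at most 8 in a bin, and the one at chr16:91232001-91233250 had 39 ChIP tags, 8 input tags and at most 9 in a bin. Between the 2 tallest clusters lay 1500 bp without a called bin. Only 4 of the 72 bins held no ChIP tag, and the median bin held 5, compared with 1 in the flanks.

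At Pax6, a paired box and homeodomain factor, enrichment was spread over 6 low clusters along the 30 kb window, with 12 of 120 bins called. This extent depended on the calling. The called length of 3.0 kb became 0.75 kb at an adjusted p limit of 0.0001, 7.5 kb with 500 bp bins, 6.5 kb with the genome mean alone and 5.0 kb with input scaled by bins outside clusters. The window held 436 ChIP tags and 177 input tags, or 14.5 ChIP tags per kb, compared with 22.9 at Olig2, 17.9 at Nkx2-5, 12.9 at T and 12.3 at Gata6. None of the 6 clusters was higher than 13 tags. The widest, chr2:105515501-105516750, held 45 ChIP tags and 8 input tags (exact Poisson, adjusted p = 6.19e-05). The clearest by the test was chr2:105500001-105500500, with 20 ChIP tags and 0 input tags (exact Poisson, adjusted p = 1.97e-06). Its 20 tags were divided unevenly between strands, 15 on the plus strand and 5 on the minus strand. At chr2:105508751-105509750, a cluster of 36 ChIP tags and 10 input tags peaked at 11 tags in a bin (exact Poisson, adjusted p = 7.51e-05). The other 3, at chr2:105501251-105502250, chr2:105506751-105507000 and chr2:105521251-105521750, held 22, 9 and 20 ChIP tags and were not called at an adjusted p limit of 0.0001. Gaps without a called bin between neighboring clusters ran from 750 to 5750 bp, and the median bin of the window held 3 ChIP tags, compared with 1 in the flanks.

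At Gata6, a zinc finger factor, the main feature was a single broad and flat cluster. It spanned 3000 bp, chr18:11052251-11055250, and 8 of its 12 bins were called. It held 101 ChIP tags and 8 input tags, yet its highest bin held 13 tags (exact Poisson, adjusted p = 1.66e-08). Tags on the plus and minus strands were even, at 51 and 50. A smaller cluster, chr18:11048001-11048750, held 22 ChIP tags and 7 input tags and peaked at 8 tags in a bin. The remaining call was a single bin, chr18:11059001-11059250, with 10 ChIP tags and 1 input tag (exact Poisson, adjusted p = 1.88e-05), and all 10 of its tags were on the plus strand, which sets it apart from the broad cluster. In all, the window held 209 ChIP tags and 52 input tags, and 11 of 68 bins were called. In the flanks of Gata6 no bin was called and none held more than 4 ChIP tags.

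At T, a T-box factor, enrichment was concentrated in a cluster of 1750 bp, chr17:8626251-8628000, with 6 of 7 bins called. This cluster held 82 ChIP tags and 12 input tags, and 4 of its bins held 14 tags each, which was its height (exact Poisson, adjusted p = 2.91e-08). Its 7 bins held between 8 and 14 ChIP tags, and the 12 bins of the broad Gata6 cluster between 5 and 13, so that neither had 1 dominant bin. The single bins at chr17:8629001-8629250 and chr17:8631251-8631500 were also called, with 8 and 7 ChIP tags. Neither was called when each position and strand was counted once, which left 1 cluster in the window. The window as a whole held 220 ChIP tags and 85 input tags, with 8 of 68 bins called.

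At Nkx2-5, a homeodomain factor, enrichment took the form of 2 adjoining clusters 750 bp apart. The taller, chr17:26977251-26978500, held 69 ChIP tags and 8 input tags, and its highest bin, with 26 ChIP tags, was the highest in the 5 windows (exact Poisson, adjusted p = 1.46e-19). The other, chr17:26975751-26976500, held 44 ChIP tags and 8 input tags and peaked at 17 tags in a bin (exact Poisson, adjusted p = 8.56e-09). With 269 ChIP tags and 98 input tags, the window had 6 of 60 bins called, or 10.0%, the same share as at Pax6. The called length of 1.5 kb was 3.5 kb with 500 bp bins and 3.0 kb with the genome mean alone as the expected level.

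Relative to input, each window exceeded its own flanks. The ChIP to input odds of the window over those of its flanks were 5.10 at Gata6 (95% interval 3.61 to 7.30, conditional exact), 3.50 at Olig2 (2.69 to 4.58), 2.59 at Pax6 (2.08 to 3.24), 2.26 at Nkx2-5 (1.74 to 2.96) and 1.86 at T (1.41 to 2.49). Gata6 led this order although its window held the fewest ChIP tags. Its flanks were the poorest in ChIP, with 324 ChIP and 412 input tags, and its window held 0.742 times as many input tags per kb as the flanks (95% interval 0.545 to 0.992). T came last although its window held more ChIP tags than that of Gata6, and its flanks held 705 ChIP and 508 input tags. Against the rest of its chromosome in place of the flanks, the odds ratio was 5.19 at Olig2 (4.10 to 6.65), 4.26 at Gata6 (3.13 to 5.89), 2.35 at Pax6 (1.97 to 2.81), 2.30 at Nkx2-5 (1.82 to 2.93) and 2.17 at T (1.68 to 2.82), so that the order of Gata6 and Olig2 depended on the background. The intervals of Gata6 and Olig2 overlapped against either background, as did those of Pax6, Nkx2-5 and T among themselves. The order within each of these groups is a description. Input alone was no higher in the window than in the flanks at Gata6, T or Olig2. Per kb, the input of the window was 0.791 times that of the flanks at Olig2 (0.622 to 0.996) and 0.984 times at T (0.773 to 1.24). With each position and strand counted once, the lower input in the windows of Gata6 (0.809, 0.579 to 1.11) and Olig2 (0.873, 0.671 to 1.12) was within counting error. The ratio for all input tags was 1.15 at Nkx2-5 (0.917 to 1.42) and 1.18 at Pax6 (0.988 to 1.40). Against the rest of the chromosome, input was higher in the windows of Nkx2-5 (1.62 times, 1.32 to 1.97), Pax6 (1.43 times, 1.23 to 1.66) and Olig2 (1.301 times, 1.04 to 1.61).

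**Figure D2:**
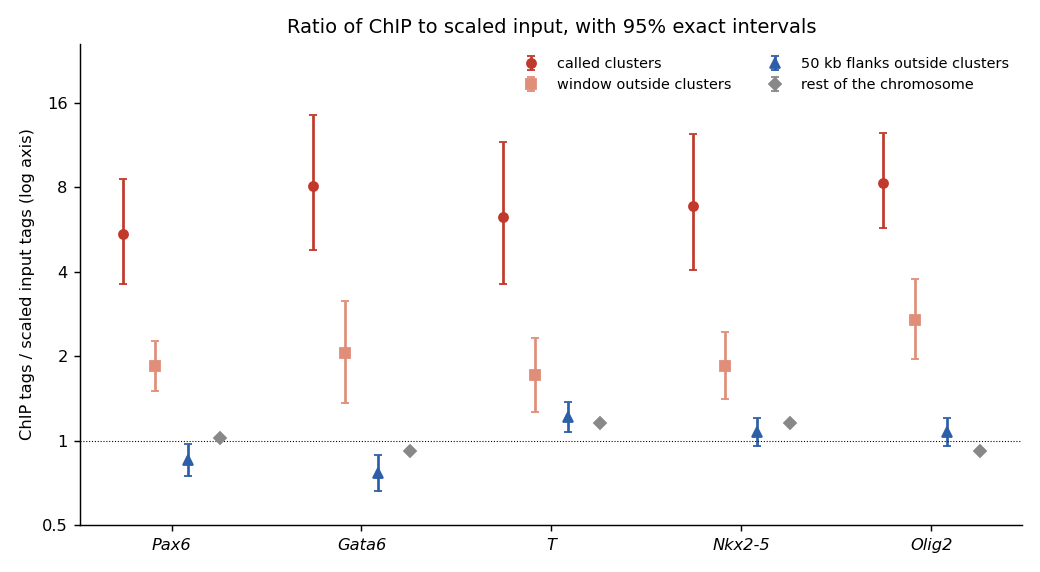
Ratio of ChIP to scaled input tags, on a log axis, for the called clusters, the rest of the window, the flanks outside clusters and the rest of the chromosome at each of the 5 loci, with 95% exact intervals as bars. The called clusters lie between 5.47 and 8.31, a position their selection by ChIP tags sets in part, the rest of the windows between 1.71 and 2.70, and the flanks between 0.764 and 1.21. A ratio of 1 is set by the library totals and is not the background level.

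The excess of ChIP tags was not limited to the called clusters. In the window outside clusters, ChIP over scaled input was 2.70 at Olig2 (95% exact interval 1.96 to 3.76), 2.05 at Gata6 (1.36 to 3.14), 1.85 at Nkx2-5 (1.41 to 2.45), 1.84 at Pax6 (1.505 to 2.26) and 1.71 at T (1.26 to 2.32). When clusters were left out of the windows and of the flanks alike, the odds ratio between them was 2.68 at Gata6 (1.73 to 4.22), 2.52 at Olig2 (1.79 to 3.59), 2.16 at Pax6 (1.70 to 2.77), 1.72 at Nkx2-5 (1.28 to 2.34) and 1.41 at T (1.02 to 1.96). It was lower at each locus with 1 kb on either side of each cluster also left out, at 1.94 at Gata6 (1.06 to 3.61), 1.84 at Olig2 (1.08 to 3.20), 1.57 at Nkx2-5 (1.11 to 2.22) and 1.52 at Pax6 (1.09 to 2.11). At T it was 1.06 (0.709 to 1.59), an interval that includes 1, as did that of T outside clusters with 500 bp bins (1.26, 0.884 to 1.82) and with flanks of 25 kb (1.25, 0.881 to 1.78). Relative to scaled input itself, without the flanks, these outlying stretches stood at 1.82 at Olig2 (1.09 to 3.13) and 1.55 at Nkx2-5 (1.13 to 2.14), whereas the values of 1.48 at Gata6 (0.828 to 2.70), 1.19 at T (0.817 to 1.75) and 1.17 at Pax6 (0.874 to 1.58) had intervals that include 1. A ratio of 1 is set by the library totals and is not the background level. In the flanks over 1 kb from clusters the ratio was 0.764 at Gata6, 0.773 at Pax6, 0.985 at Nkx2-5, 0.991 at Olig2 and 1.12 at T. Across the genome, stretches of 17 kb held a median of 44 ChIP and 62 input tags. The called clusters held 152 of the 436 ChIP tags in the window of Pax6, 113 of 269 at Nkx2-5, 97 of 220 at T, 133 of 209 at Gata6 and 265 of 412 at Olig2. Because the cells were analysed in bulk, weak binding in many cells and strong binding in few cannot be told apart.

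The level of KDM2A was compared among the loci by the 1 kb, or 4 adjacent bins, with the most ChIP tags in each window. It was 69 tags at Olig2 (95% exact Poisson interval 53.7 to 87.3), 57 at Nkx2-5 (43.2 to 73.9), 52 at T (38.8 to 68.2), 40 at Gata6 (28.6 to 54.5) and 37 at Pax6 (26.1 to 51.0). Input in the same stretches was 2, 8, 5, 1 and 8 tags. The stretches were chosen as the maximum of each window, and the intervals do not cover that choice, so that the order is a description. The ratio of Olig2 to Nkx2-5 was 1.21 (0.840 to 1.75), of Nkx2-5 to T 1.10 (0.739 to 1.63), of T to Gata6 1.300 (0.844 to 2.01) and of Gata6 to Pax6 1.08 (0.674 to 1.74), and each of these intervals between neighbors includes 1. The ratio of the first to the last, Olig2 to Pax6, was 1.86 (1.23 to 2.86). The windows differ in length, from 15 to 30 kb, and the longest, that of Pax6, had the lowest value.

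**Figure D3:**
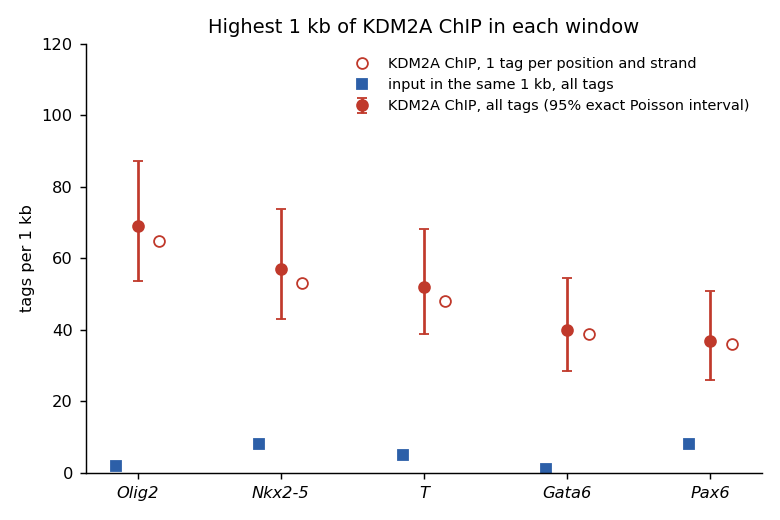
Tags per 1 kb in the stretch with the most ChIP tags of each window, for all ChIP tags (filled red, with 95% exact Poisson intervals), for tags with each position and strand counted once (open red) and for input in the same stretch (blue). ChIP falls from 69 tags at Olig2 to 37 at Pax6 with overlapping intervals between neighbors, and input lies between 1 and 8.

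Counting each position and strand once changed the ChIP values little. Copies were 4.59% of the ChIP tags in the window of Pax6, 5.26% at Gata6, 6.36% at T, 5.58% at Nkx2-5 and 5.34% at Olig2, and between 13.5% and 25.4% of the input tags. The highest 1 kb then held 65 tags at Olig2, 53 at Nkx2-5, 48 at T, 39 at Gata6 and 36 at Pax6, in the same order. Of the 388 bins, 49 were called, or 12.6%, against 0.97% of all bins. 15 of the 18 clusters were called again, and the 3 that were missed were the single bins at T and the outer cluster of Olig2 at chr16:91220251-91221500. At an adjusted p limit of 0.0001, where 0.613% of all bins were called, 10 of the 18 were found. That limit is itself 1 of 6 alternative settings, so at most these 10 could be called in each, and all 10 were. They were 3 clusters at Pax6, 2 at Gata6, 1 at T, 2 at Nkx2-5 and 2 at Olig2.

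Set beside the 43912 clusters of the genome, most clusters of the lineage regulators were low for their width. The median cluster was 250 bp wide and 12 tags high, with upper quartiles of 1000 bp and 18 tags. The height of the tallest cluster was reached or passed by 12.2% of the genome's clusters for Nkx2-5 and 13.6% for Olig2, but by 40.8% for T and 45.9% for both Gata6 and Pax6. These shares moved with the set of clusters. At an adjusted p limit of 0.0001 they were 21.4% for Nkx2-5, 23.9% for Olig2, 72.3% for T and 80.4% for Gata6 and Pax6, and with the genome mean alone 7.35%, 8.22%, 24.2% and 27.1%. By width the order was different. The broad cluster of Gata6 was matched or exceeded in width by 1.68% of clusters, the widest of Olig2 by 4.07%, that of T by 8.41%, and those of Pax6 and Nkx2-5 by 17.7%. Of the 169 clusters as wide as the one at Gata6, whose median height was 26 tags, 2.96% were no higher than its 13 tags. Of the 1136 clusters of 1750 bp, with a median of 24 tags, 10.7% were no higher than the clusters of that width at T and Olig2. The tallest cluster of Olig2, with 25 tags, lay near the median of 25.5 tags for its 2250 bp, and the taller cluster of Nkx2-5, with 26 tags, lay above the median of 22 for its 1250 bp. In total, 15 of the 18 clusters were lower than the median of all clusters of the same width. The other 3 were both clusters of Nkx2-5, which were higher, and the single bin at Gata6, which equaled its median of 10 tags. By construction, such a median has no more clusters below it than at or above it. The 18 clusters come from 5 windows and are not independent of one another. Low height for width was not particular to the windows. In the flanks of T and Pax6 every cluster was also lower than that median, while those of Nkx2-5 and Olig2 were mixed.

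**Figure D4:**
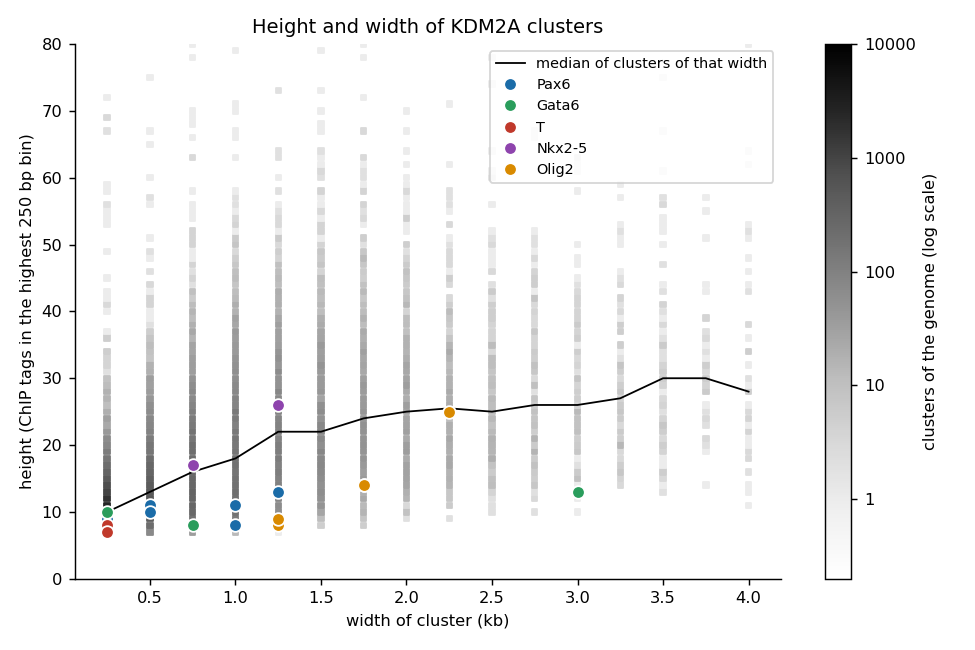
Height, in ChIP tags of the highest 250 bp bin, against width in kb for all clusters of the genome up to 80 tags and 4 kb (grey squares, darker for more clusters), their median height at each width (black line) and the 18 clusters of the 5 loci (coloured circles, some of which overlap). The broad Gata6 cluster, at 3 kb and 13 tags, lies well below the line at 26, and both Nkx2-5 clusters lie above it.

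For the windows as a whole, the highest bin was low beside the number of called bins at Pax6, Gata6 and T. This was less marked at Olig2 and absent at Nkx2-5. The genome was divided into adjacent stretches of the length of each window. At least as many called bins as at Olig2 were found in 0.183% of stretches of 18 kb, as many as at Gata6 in 0.995% of stretches of 17 kb, as many as at Pax6 in 2.07% of stretches of 30 kb, as many as at T in 2.15% of stretches of 17 kb and as many as at Nkx2-5 in 3.34% of stretches of 15 kb. Between 71.4% and 81.7% of stretches held no called bin. Of the 1738 stretches with at least as many called bins as Pax6, 0.403% had no bin higher than its 13 tags, and their median was 29 tags. The share was 0.746% for Gata6, 3.23% for T and 15.95% for Olig2, against 53.0% for Nkx2-5. Only 281 of the 1738 stretches had exactly 12 called bins, as Pax6 did, and the others had more. Stretches with more called bins can be taller for that reason, so these shares do not compare windows of equal extent. The sets for the other loci were drawn in the same way. At least as many input tags as in the window were found in 9.90% of stretches for Nkx2-5, 15.2% for Pax6, 28.3% for T, 33.5% for Olig2 and 61.4% for Gata6. These are descriptions of 1 ChIP library, and no test was made of the position of the 5 loci among all stretches.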

How the data were processed

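The data are 1 KDM2A ChIP and 1 input library from mouse ESCs, each amplified by 18 cycles of PCR. The authors aligned the reads, with Bowtie and mm9 named in the submitters' processing notes, and deposited, per position and strand of each chromosome, an unnormalized count of tags. Whether positions were filtered for copies is not given in the sources used here, and the highest count at a position was 7 in the ChIP and 9 in the input library. The precision of each value is set by its number of tags, and PCR copies are not independent molecules, so intervals cover counting error only.

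Tags were moved by 50 bp in the direction of the read and counted in 250 bp bins, leaving out 10 kb blocks in which neither library had a tag. Scaled input was averaged over the bin and 10 bins on either side, and the genome mean was used where it was greater. The Poisson test was run on all bins. It was also tried on simulated independent tags over an even background, which cannot show how copies or uneven input affect the calls. Odds ratios, ratios of rates and counts have 95% exact intervals. No p-value was computed over the 5 members. Python 3.11.15, numpy 2.4.6, pandas 2.3.3, scipy 1.17.1 and matplotlib 3.10.9 were used. The 5 genes, their windows and the comparisons were chosen with earlier results of these data known, all 5 genes were named by rule, and the comparisons outside clusters and with the rest of the chromosome were added after the values were seen. Alternatives were a count with each position and strand counted once, no movement of tags, 500 bp bins, an adjusted p limit of 0.0001, the genome mean alone, scaling by bins outside clusters, flanks without clusters and flanks of 25 kb. No annotation or sequence of mm9 was used, so start sites, exons and CpG islands were not placed on the windows. The RefSeq tables of GRCm38.p6 served for promoter sequence and gene order, and the promoter of Gata6 was not analysed here.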

Additional observations from a re-analysis of the deposited data

How the results depend on the processing

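The excess of ChIP over input in the windows relative to flanks held at the 5 loci in each alternative that bears on it. The called length in the windows, 14.25 kb, was 27.5 kb with 500 bp bins, where a call covers a longer stretch, and 7.5 kb at an adjusted p limit of 0.0001, a stricter limit. Testing input against ChIP called 0 kb, and 0.25 kb with the genome mean alone. Input differed between window and flanks at 2 loci (Gata6 and Olig2, lower in the window), at 0 loci when each position and strand was counted once and at 1 with flanks of 25 kb, where input at Pax6 was higher in the window (1.28, 1.05 to 1.57). With flanks without clusters it differed at 3, Pax6 again higher (1.20, 1.005 to 1.43). The cause was not tested. Outside clusters, the interval at T included 1 in 5 alternatives. The 41 summary values are called lengths, or counts of loci or of pairs of loci without regard to direction. Of these 41, 36 stayed within 1.5 times and 5 moved. Of 165 values of single loci, 132 stayed, 22 moved, 9 lost and 2 gained an interval without 1, and none of these reversed. The 165 leave out the rest of the chromosome as background. There the input ratio of Olig2 did reverse, from 0.791 (0.622 to 0.996) against the flanks to 1.301 (1.04 to 1.61). The order of loci cannot be resolved between neighbors at 37 to 69 tags per kb. No paired analysis was possible because there is 1 library of each kind.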

Other observations

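The flanks of the 5 loci held 18 further clusters, 7 at T, 5 at Olig2, 4 at Nkx2-5, 2 at Pax6 and none at Gata6. Of these, 10 were single bins, and 7 were called in each of the 6 alternative settings. The strongest was chr16:91269751-91272000, beyond Olig2 on the side where Olig1, a related basic helix-loop-helix factor, follows in the gene order of GRCm38.p6. It held 166 ChIP tags and 15 input tags and peaked at 34 tags in a bin (exact Poisson, adjusted p = 3.37e-30), more than any cluster in the 5 windows, and 5.19% of all clusters were as high. Whether it lies at Olig1 was not determined here, since no mm9 annotation was used. Near Nkx2-5, the cluster chr17:27022501-27023500 held 43 ChIP tags and 7 input tags and peaked at 19 tags in a bin (exact Poisson, adjusted p = 8.33e-13).

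The flanks of a locus were not alike. At Nkx2-5 the flank of lower coordinates had 247 ChIP and 282 input tags and that of higher coordinates 443 and 287, an odds ratio of 0.568 (95% interval 0.450 to 0.716). At Gata6 the corresponding values were 131 and 224 against 193 and 188, with an odds ratio of 0.570 (0.420 to 0.773), and at Olig2 the odds ratio was 0.690 (0.555 to 0.858). At Pax6 it was 0.890 (0.685 to 1.16) and at T 1.16 (0.915 to 1.47), intervals that include 1.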
